A study of Mus musculus with 6 samples.

Results

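The TRIM and RNF genes encode the tripartite motif proteins and the RING finger proteins, most of which act as E3 ubiquitin ligases. The set was chosen with earlier results of these data known and is defined by name. It holds every gene whose single platform symbol is Trim or Rnf followed by a number, except Rnf8 and Rnf168. The array carried 121 such genes (52 Trim, 69 Rnf) on 251 probe sets, and the 80 that reached a signal of 100 on at least 1 of the 6 arrays (30 Trim, 50 Rnf) are described here, out of 9678 named genes that passed the same minimum. Of these 80, 69 were at 100 or above on all 6 arrays, 2 reached 100 only on mock arrays (Trim16 and Trim46) and 3 only on irradiated arrays (Rnf150, Trim17 and Trim2). The other 41 genes (22 Trim, 19 Rnf) stayed below 100 throughout and were not tested. Nearest to that limit lay Trim2, with a highest signal of 101.2, and Rnf150 with 103 on the inner side, and Rnf227 with 95.5 and Trim13 with 70.2 on the outer side.

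A ubiquitin ligase is the last of the 3 enzymes that place ubiquitin on a protein. An E1 enzyme activates ubiquitin, an E2 enzyme carries it, and the RING domain of the E3 brings the loaded E2 to the substrate. Chains of one kind send the substrate to the proteasome, whereas others build signalling platforms, as in innate immunity and at DNA breaks. The names do not guarantee that activity, and Trim14, Trim16 and Trim44 are known to lack the RING domain.

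In all, 3 independently derived pre-B cell lines from wild type mice were compared, each as 1 mock-irradiated array (0 Gy) and 1 array after 1 Gy of γ-rays, given at 0.72 Gy per minute from a cesium source. All 6 cultures carried the same background. The lines were transformed with v-Abl, a viral tyrosine kinase that drives growth of B cell precursors, and expressed an Eμ-Bcl2 transgene, which counters apoptosis, and each was held in 3 μM of the Abl inhibitor STI-571 (imatinib) for 48 hours, which blocks the step from G1 to S phase. RNA was collected 2 hours after irradiation. They are transformed and pharmacologically arrested cells and not primary pre-B cells. All 7 pre-B markers measured reached a signal of 100, against 0 of 5 T cell, 0 of 3 erythroid, 0 of 5 stromal and 1 of 6 myeloid markers (Itgam, 130 to 163 on mock arrays and 235 to 342 after 1 Gy). The 2 plasma cell markers, Sdc1 and Prdm1, reached it too. Itgam was called higher after 1 Gy and Sdc1 lower (log2 fold changes 0.87 and -0.65, adjusted p of 0.0227 and 0.0461, limma), Sdc1 with 195 to 378 on mock arrays and 152 to 221 after 1 Gy. The part of other cell types in the results was not tested. The summed signal of the pre-B markers was 79896 to 91676 on the mock arrays and 73318 to 102563 on the irradiated arrays. The summed signal was 255 to 330.0 and 359 to 472 for the myeloid markers and 638 to 1697 and 709.7 to 1466 for the plasma cell markers.

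Promoter sequences are given for 4 of the genes called below, each holding a match to 1 of the 4 motifs searched. They run from 250 bases before to 50 bases after a gene's start (RefSeq, GRCm38.p6), 5′ to 3′ on the strand of the gene, with the matched letters in capitals. In Trim21 these are overlapping copies of the interferon response letters (GAAA, any 2 bases, GAAA), in Trim25 and Rnf145 the E-box CACGTG, and in Trim24 a p53 decamer consensus.
Trim21 (chr7:102565433-102565732, minus strand): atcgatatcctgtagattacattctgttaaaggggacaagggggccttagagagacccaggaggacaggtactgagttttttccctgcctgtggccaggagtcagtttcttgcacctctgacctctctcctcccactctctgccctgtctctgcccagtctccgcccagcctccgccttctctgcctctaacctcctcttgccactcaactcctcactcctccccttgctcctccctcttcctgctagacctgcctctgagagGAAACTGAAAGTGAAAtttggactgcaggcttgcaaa
Trim25 (chr11:88999153-88999452, plus strand): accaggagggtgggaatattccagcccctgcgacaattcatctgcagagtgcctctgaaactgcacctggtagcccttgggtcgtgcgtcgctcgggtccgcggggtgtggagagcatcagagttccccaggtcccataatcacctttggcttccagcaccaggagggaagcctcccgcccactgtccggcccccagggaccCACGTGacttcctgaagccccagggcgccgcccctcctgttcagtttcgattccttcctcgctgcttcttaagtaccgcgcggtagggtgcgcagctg
Rnf145 (chr11:44518706-44519005, plus strand): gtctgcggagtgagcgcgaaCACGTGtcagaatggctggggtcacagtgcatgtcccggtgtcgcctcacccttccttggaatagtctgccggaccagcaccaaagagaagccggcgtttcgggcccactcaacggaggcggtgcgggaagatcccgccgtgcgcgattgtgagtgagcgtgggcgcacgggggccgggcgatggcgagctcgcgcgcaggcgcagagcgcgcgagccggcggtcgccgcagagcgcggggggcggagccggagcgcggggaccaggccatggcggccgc
Trim24 (chr6:37870561-37870860, plus strand): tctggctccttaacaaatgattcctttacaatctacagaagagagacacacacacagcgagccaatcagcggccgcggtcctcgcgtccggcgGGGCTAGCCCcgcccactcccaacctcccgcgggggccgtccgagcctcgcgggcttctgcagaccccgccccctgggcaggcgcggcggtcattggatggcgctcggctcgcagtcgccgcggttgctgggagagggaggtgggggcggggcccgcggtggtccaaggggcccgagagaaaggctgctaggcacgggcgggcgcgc
The motifs were searched on both strands, and the promoter table held 60 of the 80 genes. The interferon response letters were found in 7 of the 60 (11.7%), against 3.99% of all 27025 genes in that table. Those 7 were Trim21, which fell, and Trim26, Trim5, Trim2, Rnf121, Rnf146 and Rnf20, none of which was called. A gene was counted if any of its promoters matched, and Trim2 and Rnf146 also have promoters without a match. The 60 genes have 84 promoters, against 32851 for the 27025 genes. In Trim26 (the first of 2 overlapping matches) and Trim5 the letters lie on the opposite strand and read as follows.
Trim26: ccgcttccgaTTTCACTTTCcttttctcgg
Trim5: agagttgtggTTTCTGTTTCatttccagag
The NF-κB consensus was found in 2 of 60 (3.33%, against 5.14% of all genes), the p53 decamer in 6 (10.0%, against 9.55%) and the E-box in 6 (10.0%, against 8.09%). Among the called genes in the table, the E-box was found for 1 of 3 that rose (Rnf166) and 2 of 9 that fell (Trim25 and Rnf145), in Rnf145 in 1 of its 3 promoters. Rnf166 also has a promoter without a match. The p53 decamer of Trim24 is in 1 of its 2 promoters. A match is a description of these letters and not evidence of binding.

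Of the 80 genes, 4 rose and 12 fell after 1 Gy (limma with line as a block, adjusted p under 0.05), and 64 were not called. As a share this was 5% higher and 15% lower. Over all 9678 genes, 6.61% rose and 14.7% fell, so that the shares in the family were near the background (over all 21762 probe sets tested, 6.78% rose and 11.5% fell). The median log2 fold change was -0.11 over the 80 and -0.11 over all genes, and the interquartile range was -0.40 to 0.15 here and -0.46 to 0.17 over all genes. Trim genes (2 higher and 6 lower of 30, median -0.13) and Rnf genes (2 and 6 of 50, median -0.11) were not tested against each other. The plot of each gene in each line shows 12 genes to the right of 0 in all 3 lines, 34 to the left and 34 with lines on both sides. Over all genes, 23.7% were higher and 41.3% lower in 3 of 3 lines. The 3 mock and 3 irradiated signals did not overlap in 5 genes that were higher and 16 that were lower, against 12.3% and 20.6% of all genes. In RNA from whole cultures, fewer cells that express a gene and less RNA per cell cannot be told apart. The beta-actin 3′/5′ ratio, a measure of RNA quality, was also lower after 1 Gy in 3 of 3 lines. It was 1.45 ± 0.05 at 0 Gy and 1.32 ± 0.06 at 1 Gy (SD, n = 3, p = 0.1 by a two-sided exact permutation test, which can go no lower with 3 against 3), and its part in these changes was not tested. The Gapdh ratio was 0.820 ± 0.071 and 0.793 ± 0.008 (SD, n = 3, p = 0.9 by the same exact permutation test).

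**Figure D1:**
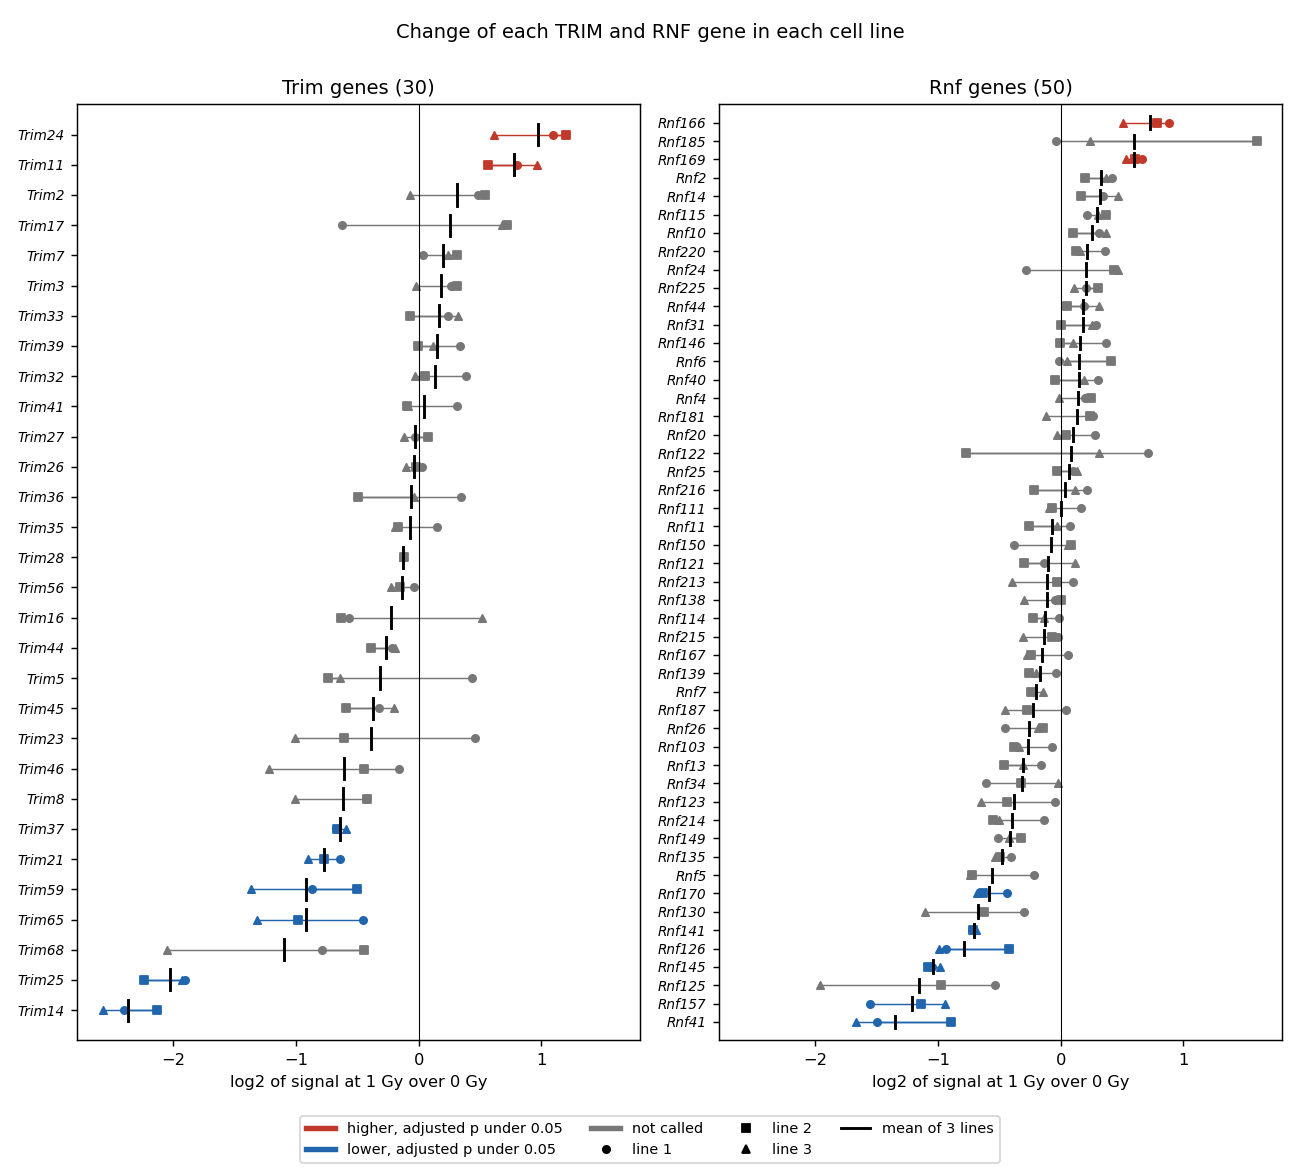
Log2 ratio of signal at 1 Gy over 0 Gy (horizontal axis) for each of the 30 Trim and 50 Rnf genes (rows), with 1 symbol for each of the 3 cell lines and a black bar at their mean. Red and blue mark the 4 genes that rose and the 12 that fell (adjusted p under 0.05), all of which have their 3 symbols on one side of 0, with Trim14 and Trim25 furthest to the left.

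Without the block, limma called 3 of the 16 genes, namely Trim14, Trim25 and Rnf145, all lower (2.11% of all genes were then higher and 3.20% lower). The other 13 had adjusted p of 0.05001 (Trim24) to 0.350 (Rnf169). The block removes the standing difference between lines. In 55 of 80 genes (68.8%) the highest and lowest line, averaged over both doses, lay further apart than the change with dose, as in 61.9% of all genes. Among the 16 called genes this held for Rnf157, Rnf169, Rnf170 and Trim59. All 16 kept their sign in each alternative that was run, though many alternatives leave the log2 fold change as it is. All 16 also moved the same way in every line, so that leaving out a line could not change a sign. With only 2 lines almost nothing on the array passed (0, 0 and 299 of 21762 probe sets without line 1, 2 or 3, with Trim14 and Trim25 among the 299), so that calls lost by leaving out a line say nothing about these genes.

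**Figure D2:**
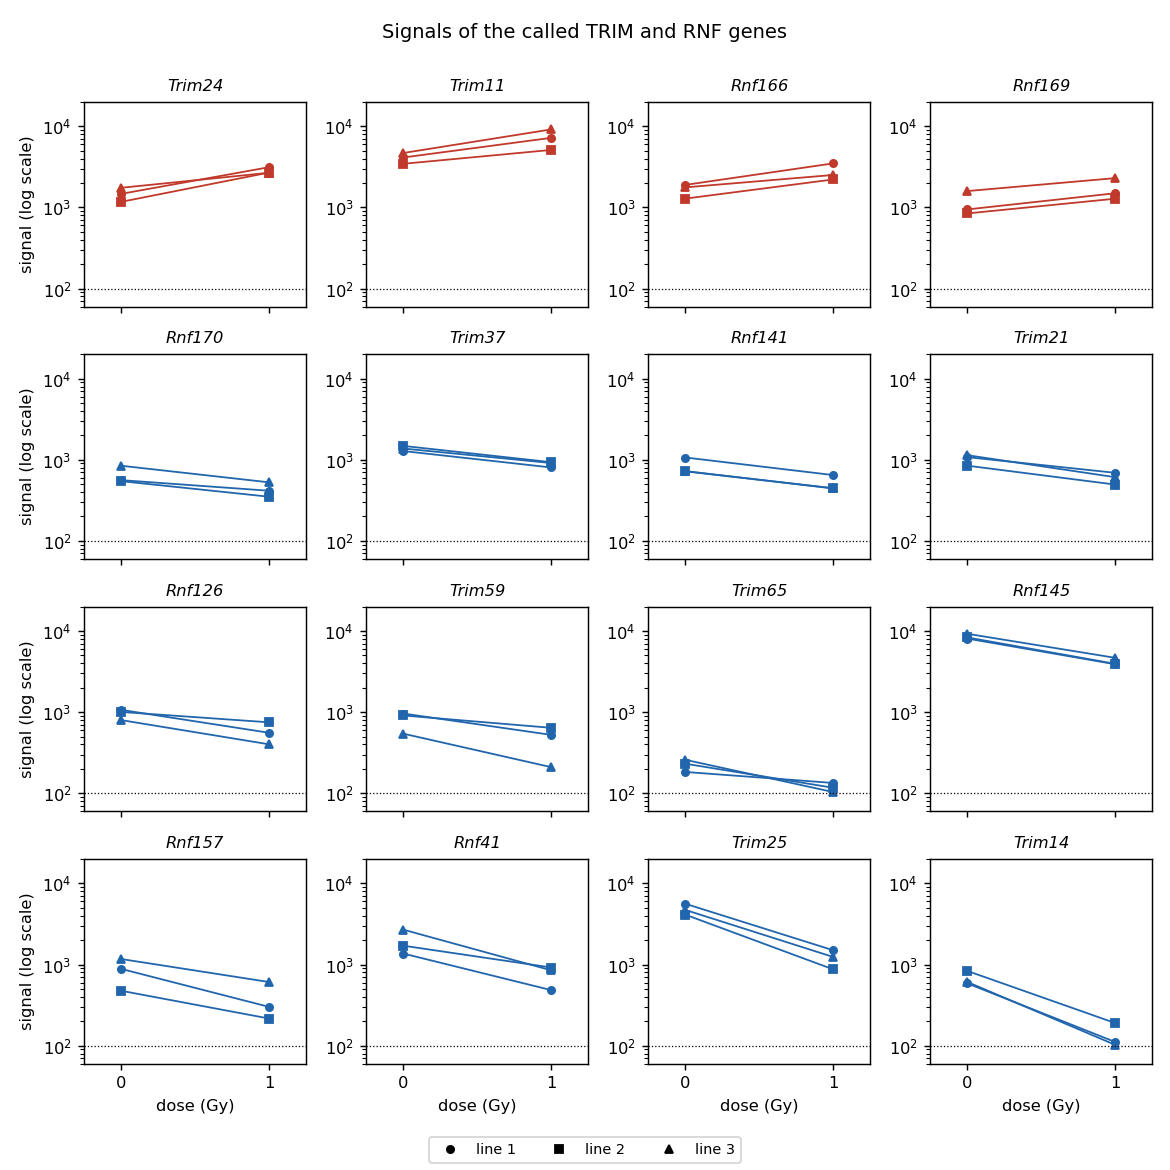
Array signal (vertical axis, arbitrary units, log scale) by dose (horizontal axis, 0 or 1 Gy) for the 16 called genes, 1 panel a gene. Each of the 3 cell lines is drawn as a pair of joined points, and dots mark a signal of 100. The 3 lines rise together in the 4 red panels and fall together in the 12 blue ones, and the signals of Trim14 and Trim65 end near 100.

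The 2 steepest falls were in genes of antiviral signalling. Trim14, an adaptor of the MAVS and cGAS pathways that sense viral nucleic acid, had signals of 586, 833 and 609 in lines 1, 2 and 3 at 0 Gy and 111, 189.6 and 102 at 1 Gy. The irradiated signals lay below all mock signals and close to the minimum of 100. This was a log2 fold change of -2.37 ± 0.14 (SE, limma, adjusted p = 0.0101), or 5.17-fold lower. Trim25, the ligase that modifies the RNA sensor RIG-I, had signals of 5613, 4119 and 4709.8 in lines 1, 2 and 3 at 0 Gy and 1498, 871 and 1239 at 1 Gy. The groups did not overlap, with a log2 fold change of -2.02 ± 0.13 (SE, limma, adjusted p = 0.0103), or 4.07-fold lower. Its brightest probe set has the suffix _s_at, which marks probes that can be shared with transcripts of other genes, and a second one without that suffix gave a log2 fold change of -2.19 (adjusted p = 0.00971, limma). A dimmer one was at -0.74 and was not called (adjusted p = 0.0627, limma).

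Trim21 and Trim65 fell by less. Trim21, a cytosolic receptor for antibodies bound to virus and the gene whose promoter with the interferon response letters is shown above, had signals of 1078, 846 and 1138 at 0 Gy and 690.3, 494 and 609 at 1 Gy. The groups did not overlap, and a second probe set was lower as well (log2 fold changes -0.77 and -0.68, adjusted p of 0.0234 and 0.0275, limma). Trim65, a ligase that modifies the RNA sensor MDA5, had signals of 183, 231 and 259 at 0 Gy and 134, 117 and 103 at 1 Gy. Its log2 fold change was -0.92 (standard error 0.20, adjusted p = 0.0444, limma), with the 3 lines spread from -0.45 to -1.32, and it no longer passed after quantile normalization or median scaling. Rnf125, a ligase that limits RIG-I signalling, had signals of 102, 199 and 87.3 at 0 Gy and 70.6, 101 and 22.4 at 1 Gy. It was lower in each line, and its log2 fold change of -1.16 did not pass the test (adjusted p = 0.0635, limma).

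Of the same list, Rnf166 went the other way. Rnf166, a ligase linked to antiviral signalling and autophagy, rose from 1894, 1283 and 1765 in the 3 lines to 3488, 2211 and 2511. The groups did not overlap, and its 2 probe sets both rose (log2 fold changes 0.72 and 0.82, adjusted p of 0.0315 and 0.0208, limma). Counted together, 1 of the 12 measured genes of the antiviral and interferon list rose and 4 fell (33.3% lower, against 14.7% of all genes), and 11 of 12 had a negative log2 fold change, with a median of -0.39. The 7 that were not called include Trim56, which acts on the STING and RNA sensing pathways (log2 fold change -0.14, 95% interval -0.44 to 0.17), and Rnf135, the RIG-I ligase Riplet, at -0.48 (adjusted p = 0.0520, limma). Trim26 and Trim5, whose interferon response letters are printed above, had log2 fold changes of -0.04 and -0.31. A dimmer probe set of Trim26 was at -0.49, lower in all 3 lines, and was not called (adjusted p = 0.0566, limma).

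Among 15 ligases of chromatin, DNA repair and p53, 2 rose (13.3%, against 6.61% of all genes) and 1 fell (6.67%, against 14.7%). Trim24, a reader of histone marks that also targets p53 for degradation, had the largest rise of the 80 genes chosen by name. Its signals were 1469, 1171 and 1744 in lines 1, 2 and 3 at 0 Gy and 3131, 2690.2 and 2674 at 1 Gy. Each irradiated signal was above each mock signal, with a log2 fold change of 0.97 ± 0.16 (SE, limma, adjusted p = 0.0266), or 1.96-fold higher. A second probe set rose (log2 fold change 1.24, adjusted p = 0.0475, limma), and the other was not called (0.19, adjusted p = 0.558). Rnf169, which binds ubiquitin-marked chromatin at DNA breaks and limits the recruitment of 53BP1, had signals of 944, 843 and 1590.1 at 0 Gy and 1495, 1280.5 and 2296 at 1 Gy. The groups overlap, with line 3 highest at both doses. The log2 changes of the 3 lines were close together at 0.66, 0.60 and 0.53, and the block gave a log2 fold change of 0.60 ± 0.11 (SE, limma, adjusted p = 0.0332). A second probe set was at 0.47 and was not called (adjusted p = 0.0923, limma). Rnf126, a ligase of cytosolic protein quality control that also has reported roles in DNA repair, fell from 1067, 1006 and 798 to 557, 749 and 401, a log2 fold change of -0.79 (adjusted p = 0.0397, limma).

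The log2 fold change was positive in 10 of these 15 genes, with a median of 0.14, against -0.11 over all genes. Best known among the others are Trim28 (KAP1), the corepressor of zinc finger proteins, with a log2 fold change of -0.13 (95% interval -0.42 to 0.16), and Rnf2 (RING1B), the Polycomb ligase of histone H2A, with 0.33 (0.02 to 0.64). For the histone H2B ligase pair Rnf20 and Rnf40, the values were 0.10 (-0.23 to 0.43) and 0.15 (-0.19 to 0.49). Rnf4, which recognises SUMO chains, was at 0.14 (-0.18 to 0.46). None of these 5 passed the test, and the probe sets read for Trim28 (_x_at) and Rnf20 (_s_at) can share sequence with other genes. Rnf2 was called higher with a trend in the variance prior. No dimmer probe set of these genes was called, and that of Rnf4 was at 0.59 (adjusted p = 0.0612, limma).

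**Figure D3:**
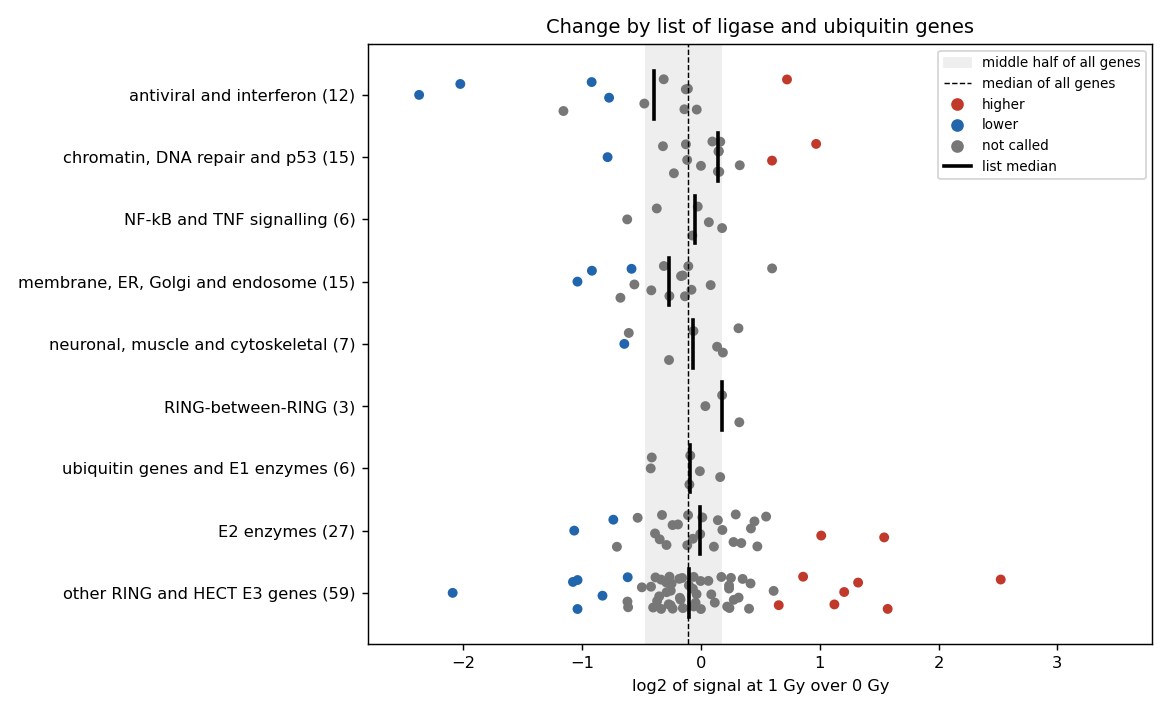
Log2 ratio of signal at 1 Gy over 0 Gy (horizontal axis) for genes of 9 lists (rows, number of measured genes in brackets), with red and blue for genes that rose or fell (adjusted p under 0.05), a black bar at the list's median, a grey band for the interquartile range of all genes and a dashed line at their median. The antiviral list has its median at -0.39 and 4 blue points, and the chromatin list has its median at 0.14.

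Of 15 ligases of membranes, 0 rose (0 also at an unadjusted p under 0.05 in limma and without the block, but 1, Rnf122, when probe sets of a gene were averaged) and 3 fell (20%, against 14.7% of all genes), with a negative change in 13 and a median of -0.27. Rnf145, a sterol-responsive ligase of the endoplasmic reticulum that acts on HMG-CoA reductase, had signals of 8066, 8331 and 9243 in lines 1, 2 and 3 at 0 Gy and 3893, 3939 and 4671 at 1 Gy. It was the brightest probe set of the family, and the log2 change was -1.05, -1.08 and -0.99 in the 3 lines, with a log2 fold change of -1.04 ± 0.11 (SE, limma, adjusted p = 0.0147), or 2.05-fold lower. Trim59, a membrane-anchored TRIM protein, had signals of 962, 911 and 543 at 0 Gy and 525, 641 and 209.9 at 1 Gy, and Rnf170, a ligase of the inositol trisphosphate receptor, had signals of 561, 545 and 844 at 0 Gy and 415, 350.3 and 527 at 1 Gy. Their log2 fold changes were -0.92 and -0.58 (adjusted p of 0.0440 and 0.0396, limma). The mock and irradiated signals of Trim59 overlap across lines and those of Rnf170 do not, but Rnf170 no longer passed after quantile normalization, after median scaling or with a minimum of 1.5-fold, and its 2 other probe sets were not called.

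The remaining called genes have varied roles. Rnf41 (Nrdp1), a ligase that controls the turnover of ErbB3 and of cytokine receptors, had signals of 1367, 1708 and 2693 at 0 Gy and 484, 919.7 and 849 at 1 Gy. Every line fell, and the groups did not overlap, with a log2 fold change of -1.35 ± 0.19 (SE, limma, adjusted p = 0.0198). Of its 3 other probe sets, 2 were called lower too, with log2 fold changes of -1.66 and -2.13. Rnf157, a ligase studied mainly in neurons, had signals of 884, 475 and 1170.0 at 0 Gy and 301, 216 and 609 at 1 Gy. Its lines overlap between doses, and its log2 fold change of -1.21 (adjusted p = 0.0183, limma) was shared by 2 further probe sets (-1.22 and -0.82), while a dimmer one was at 0.66 (adjusted p = 0.0698, not called). Rnf141 fell from 1067, 725 and 719.6 to 648, 443 and 446 in lines 1, 2 and 3, with a log2 fold change of -0.71 ± 0.11 (SE, limma, adjusted p = 0.0233), and both of its other probe sets were also called lower.

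Trim37, a ligase of centrosomes and peroxisomes, fell from 1281, 1482 and 1377 to 804, 934 and 912. It was the 1 gene called among 7 TRIM genes of neurons, muscle and the cytoskeleton (14.3% lower, against 14.7% of all genes, with a median of -0.06). Its log2 fold change was -0.64 ± 0.11 (SE, limma, adjusted p = 0.0279). Of its 4 other probe sets, 3 were called lower (the one read here is an _s_at probe set and these are not). Trim11, a ligase with a part in clearing misfolded proteins, rose from 4122, 3446 and 4681 to 7200.4, 5108 and 9146. The groups did not overlap, with a log2 fold change of 0.78 ± 0.13 (SE, limma, adjusted p = 0.0278), and it has no other tested probe set. Of 10 called genes with several tested probe sets, 8 had at least 1 other called the same way and 0 had one called the opposite way, and 20 of their 21 other probe sets had the same sign. Among the 34 genes with several probe sets that were not called, a dimmer probe set was called in 3 (Rnf122 and Rnf14 higher, Trim8 lower).

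Genes of NF-κB and TNF signalling within the family were not called, with 0 of 6 in either direction (limma, with 0 higher and 2 lower at an unadjusted p under 0.05, and 0 by the methods' test after Benjamini-Hochberg adjustment), against 6.61% higher and 14.7% lower of all genes. Trim8 of this list was called lower with a trend in the variance prior, with the mean of all its probe sets and with a minimum of 100 on 3 arrays. Rnf31 (HOIP), the catalytic subunit of the linear ubiquitin chain complex that feeds NF-κB, had signals of 367, 442 and 434 at 0 Gy and 446, 442 and 516 at 1 Gy. Those signals overlap, with a log2 fold change of 0.18 (95% interval -0.15 to 0.51). Trim8, a ligase that promotes TNF signalling, was lower in each line at -0.62 (adjusted p = 0.0695, limma). The 3 genes of the RING-between-RING class (Rnf14, Rnf31 and Rnf216), whose ligases take ubiquitin onto themselves before passing it on, were not called either (0 also at an unadjusted p under 0.05, limma, and 0 by the methods' test), and their log2 fold changes ran from 0.04 to 0.32. Rnf14 was called higher with a trend in the variance prior, and a dimmer probe set of it was called higher at 0.75 (adjusted p = 0.0243, limma).

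**Figure D4:**
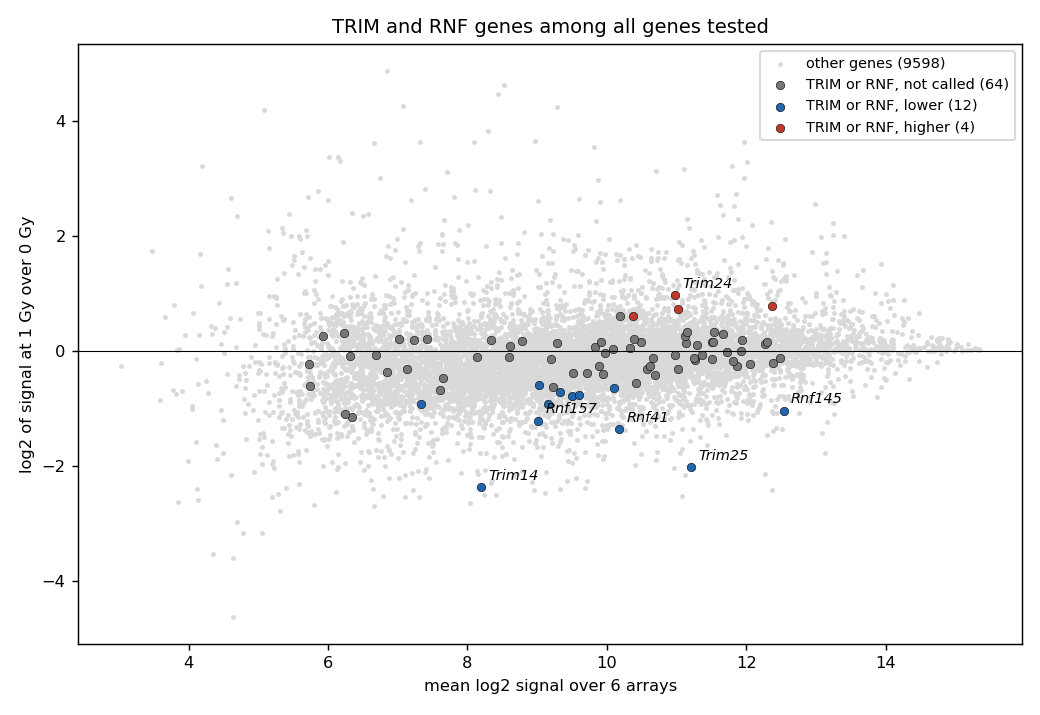
Log2 ratio of signal at 1 Gy over 0 Gy (vertical axis) against mean log2 signal over the 6 arrays (horizontal axis) for 9678 genes, with the 80 TRIM and RNF genes as large points in grey (not called), blue (lower) or red (higher). The family lies within the cloud of all genes, and Trim14 and Trim25 are at its lower edge.

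Other parts of the ubiquitin pathway were compared from lists of named genes. Of the list of ubiquitin genes and activating enzymes, 6 genes were measured, and none of them encodes ubiquitin. Uba6 activates ubiquitin, while Uba7 (ISG15), Uba3 and Nae1 (NEDD8), Sae1 (SUMO) and Atg7 (ATG8) serve related modifiers. Limma called 0 of these 6 (0 higher and 2 lower at an unadjusted p under 0.05, and 0 by the methods' test), but 1 lower with a floor of 100 and 2 lower with a trend in the variance prior. Over all genes, 6.61% rose and 14.7% fell. Of 27 E2 genes, 2 rose and 2 fell (7.41% each way, against those same shares). Ube2e3, an E2 that works with RING ligases, rose from 5782, 5532 and 4735 in the 3 lines to 17346, 15093 and 14297, a log2 fold change of 1.54 ± 0.11 (SE, limma, adjusted p = 0.0108). Cdc34, the E2 of cullin ligases, had a log2 fold change of 1.01, and Ube2t, the E2 of the Fanconi pathway, one of -1.07, which did not pass without the block (adjusted p = 0.300, limma). A further list held 59 measured genes, mainly other RING and HECT ligases, though not every gene on it is of those classes. Of these 59, 7 rose and 6 fell (11.9% and 10.2%, against 6.61% and 14.7% of all genes), with a median of -0.10. Among the called genes of that list were Tnfaip3 (A20), an inhibitor of NF-κB that is not a RING or HECT ligase, with a log2 fold change of 2.52. Pcgf5, a Polycomb partner of Rnf2, was at 1.57, and Traf5, an adaptor of TNF receptors, at -2.09.

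Some genes of the family differed far more between cell lines than between doses. Trim5 had signals of 222, 21.3 and 797 at 0 Gy and 301, 12.8 and 512 at 1 Gy. Line 2 was under 100 and line 3 highest at both doses, against a log2 fold change of -0.31 with dose (adjusted p = 0.450, limma). Trim68 had signals of 159, 333 and 25.4 at 0 Gy and 92.0, 244 and 6.11 at 1 Gy, highest in line 2 and lowest in line 3. Rnf130, a ligase of the goliath family, had signals of 736, 137 and 150.4 at 0 Gy and 597, 88.7 and 69.8 at 1 Gy, several times higher in line 1 than in the others. Both were lower after 1 Gy in 3 of 3 lines without passing the test (log2 fold changes -1.09 and -0.68, adjusted p of 0.0935 and 0.0746, limma). In all, 14 of the 80 genes differed more than 2-fold between lines on the mock arrays, among them genes with signals under 100 such as Trim5 and Trim68. The values of these 3 genes were chosen after they were seen, as were those of the uncalled genes named by role, and with 1 mock array per line a difference between lines has no replicate.

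**Figure D5:**
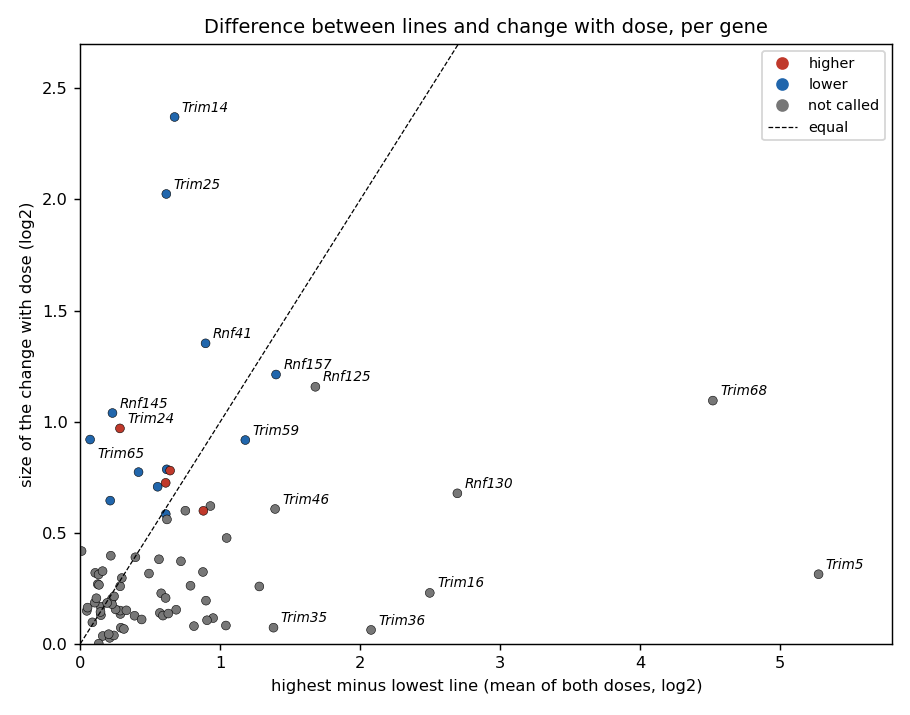
Size of the log2 change with dose (vertical axis) against the log2 difference between the highest and lowest line, averaged over both doses (horizontal axis), for the 80 TRIM and RNF genes, with a dashed line where both are equal. Trim14, Trim25, Rnf41 and Rnf145 lie to the left of the dashed line and Trim5, Trim68, Rnf130 and Trim16 far to the right of it.

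The 64 genes that were not called include 6 with an estimated change of at least 1.5-fold (Rnf125, Rnf130, Rnf185, Trim46, Trim68 and Trim8). Rnf7 (RBX2), the RING subunit of cullin ligases, is among the 3 brightest probe sets of the family with Rnf145 and Trim28, and had signals of 5565, 5458 and 6175 at 0 Gy and 4766, 4621 and 5587 at 1 Gy. They were lower in each line, with a log2 fold change of -0.20 and a 95% interval of -0.50 to 0.09. At the dim end, Trim2 and Rnf150, which only just passed the signal minimum, had log2 fold changes of 0.32 and -0.08, and that of Rnf150 changed sign under 3 alternatives.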

How the data were processed

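Expression was measured on 6 Affymetrix mouse arrays, on which a probe set is a group of probes for a transcript. The authors deposited linear intensity values, and MAS5 is the tool in the submitters' processing notes. The mean of each array without its lowest and highest 2% is 500. The RMA correction and quantile normalization in the methods of the study are not part of these values. The number of arrays limits the precision, and no detection flags were used. Median signals were 51.6 to 59.4, and 41.7% to 43.8% of probe sets reached 100.

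Signals (floor of 1) were put on the log2 scale, and 21762 of 45037 non-control probe sets, those that reached 100 on 1 or more arrays, entered limma (version 3.58.1, R 4.3.3), with dose and cell line as factors and Benjamini-Hochberg adjustment over all of them. The ANOVA of the study names dose only, and that fit is an alternative. The replicate numbers are cell lines by the design text, and deviations from the group means correlated at 0.668 to 0.781 for the same number and -0.495 to -0.053 for different numbers. Deviations within a dose cancel out, so positive values for the same number make those for different numbers tend to be negative. The negative values are therefore no separate evidence of the pairing. P-values of the fit with the block leave out the standing difference between lines. They and the standard errors rest in part on how far a gene's change with dose varied between lines, with 2 residual degrees of freedom. The other part is a variance that limma shares over all tested probe sets, with 2.57 prior degrees of freedom. A standard error is thus not the spread between lines of that gene alone. Each gene was read from the probe set with the highest mean log2 signal among those with 1 symbol in the platform annotation, in which 34945 probe sets have 1 symbol, 932 several and 9160 are not listed. Percentages of all genes are over these representatives. Intervals are limma's 95% intervals. The script was tested on simulated data.

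The genes and lists were chosen with earlier results of these data known, so that lists are described by counts and medians, with no test. Named genes were, by rule, the called genes with the 10 largest rises and 10 largest falls, the 3 brightest, up to 3 called genes per list, genes called without the block and those nearest the signal minimum. Others are marked as chosen after their values were seen. The alternatives were no block, no filter, a minimum on 3 arrays, quantile normalization, median scaling, log2 of the signal plus 16, a floor of 100, a variance trend, a minimum of 1.5-fold, the methods' ANOVA, the mean of a gene's probe sets and leaving out each line.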

Additional observations from a re-analysis of the deposited data

How the results depend on the processing

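The number of genes called depended on the processing. The 16 called genes kept their sign under all 15 alternatives, but most of these could not have changed it. Dropping the block or the filter, the minimum on 3 arrays, the variance trend, the 1.5-fold minimum and the methods' ANOVA leave a gene's log2 fold change as it is. Leaving out a line could not change the sign of genes that moved the same way in every line. Without the replicate block, 0 genes rose and 3 fell (Trim 0 and 2, Rnf 0 and 1). Without the filter on dim probe sets limma called 0 of all 45037 probe sets and so 0 of these genes, with 4 higher and 13 lower at an unadjusted p under 0.05. The methods' ANOVA with its own thresholds gave 2 higher and 7 lower (Rnf 0 and 2), and after Benjamini-Hochberg adjustment 0 and 2 (Rnf145 and Rnf149, with Trim 0 and 0). A trend in limma's variance prior gave 7 higher and 18 lower (Rnf 5 and 11), with 6121 of all 21762 probe sets called against 3974. Leaving out a line gave 0 higher and 0 to 2 lower (Trim 0 to 2, Rnf 0), where limma called 0 to 299 of all 21762 probe sets, so that this says nothing about the stability of these genes (4 to 6 were higher and 15 to 22 lower at an unadjusted p under 0.05). The other alternatives called 14 to 20 of the genes in all. Quantile normalization and median scaling lost Rnf170 and Trim65, the 1.5-fold minimum lost Rnf170, and the minimum of 100 on 3 arrays, the floor of 100, the constant of 16 and the mean of all probe sets kept all 16. The log2 fold change of Rnf150, -0.080, was 0.023 after quantile normalization and 0.016 with a floor of 100, and ran from -0.16 to 0.070 when a line was left out (positive without line 1). The cause was not tested. The median log2 fold change of the genes ran from -0.17 to -0.06. Signals near 100 limit what can be read from Trim14, Trim65 and the 11 genes with an array under 100.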
